A study of Homo sapiens with 12 samples.

Results

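The 10 genes described here belong to lineages far from the cells assayed: CD3E, CD3D and CD3G of T lymphocytes, APOA1, APOA4 and APOC3 of liver and intestine, SFTPC of the lung alveolus, HBA1 and HBA2 of red cell precursors, and GH1 of the pituitary. The set was chosen by the peak list itself, since some of the genes carried a called summit in HT1080, an established human fibrosarcoma line. Summits at these genes are therefore a description, and no test is made on them. All 10 were found among the 20037 protein-coding genes of the RefSeq gene table for GRCh38.p14, in 5 loci. For each gene, every called summit inside it or within 20 kb of it was collected and assigned to the listed gene or to a neighbour.

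Accessibility was measured by ATAC-seq, in which a transposase cuts and tags open DNA. For 48 h, HT1080 cells migrated in gels of rat collagen I; the low group had 0.3 mg/mL, the medium group 1.0 and the high group 1.7, and each was sampled as 4 libraries, 12 in all. Every group, including that in the lowest concentration, received 20 µM GM6001, a broad inhibitor of matrix metalloproteinases, and cells were released with collagenase, frozen and thawed before the assay. All groups come from the same cultured line, and the file analysed was 1 peak list for all of them, with no value per library or concentration. None of the values below compares concentrations, none has replicates, and the depth per library is unknown.

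The CD3 chains are the signalling subunits of the T cell receptor complex and are made in T cells. Apolipoproteins A-I, A-IV and C-III are carried on plasma lipoproteins and are made in hepatocytes and enterocytes, surfactant protein C lines the alveolus, alpha globin joins beta globin in haemoglobin, and growth hormone is secreted by pituitary somatotrophs. In cells of other lineages such genes are usually silent, but a gene's neighbourhood can hold promoters and enhancers of unrelated genes that are used in every tissue. Alpha globin stands apart in that it lies near a chromosome end among broadly expressed genes, in GC-rich DNA, whereas beta globin lies in a closed domain outside red cells.

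The list reports intervals, each with 1 or more summits, the positions of highest signal. The authors' enrichment is the fold of signal at the summit over the local background of the peak caller. From it and the p-value the number of overlapping fragments at the summit, called the pileup, and the local background in fragments were recovered. The whole list held 188019 summits in 91278 intervals. No summit had a pileup under 35 fragments, so weaker sites would not be listed. In pooled bulk cells, a site open in a small share of cells and a site weakly open in all of them cannot be told apart.

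The 5 loci held 37 summits in 28 intervals. Of these, 14 were nearest to a listed gene, 20 were nearest to a neighbour, and 3 had both a listed gene and a neighbour with an end within 1000 bp. Only 8 of the 14 lay inside a listed gene or within 1000 bp of its end, at CD3E, APOA4, SFTPC, HBA2, HBA1 and GH1. The other 6 were closer to a listed gene than to any other but over 1000 bp away. With the strongest summit of each interval alone, 8 were nearest to a listed gene. Among the 20 assigned to neighbours, 11 lay within 1000 bp of the neighbour's end. The share of all summits that lie as close to a gene end is not given here, so these counts are only a description.

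Summits of the loci ranged in enrichment from 1.60 to 14.8, with a median of 3.64 and a median pileup of 134 fragments. The medians over the 108109 summits in intervals of at most 10 kb were 3.93 and 107, close to those of the loci. Enrichment exceeded 10 at 5 summits, and of these only the summit beside CD3E was assigned to a listed gene alone. The others lay at the UBE4A promoter, where APOA1 meets APOA1-AS, within SIK3 and within BMP1. Such values are not rare in the list. Of the summits in intervals of at most 10 kb, 14.9% were at least as enriched as that at UBE4A, the lowest of these 5. At the other extreme, 8 summits had a −log10 q below 3, close to the limit of the list, whose lowest −log10 q was 1.30. The share of all summits below 3 is not given here, so this count is only a description.

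**Figure D1:**
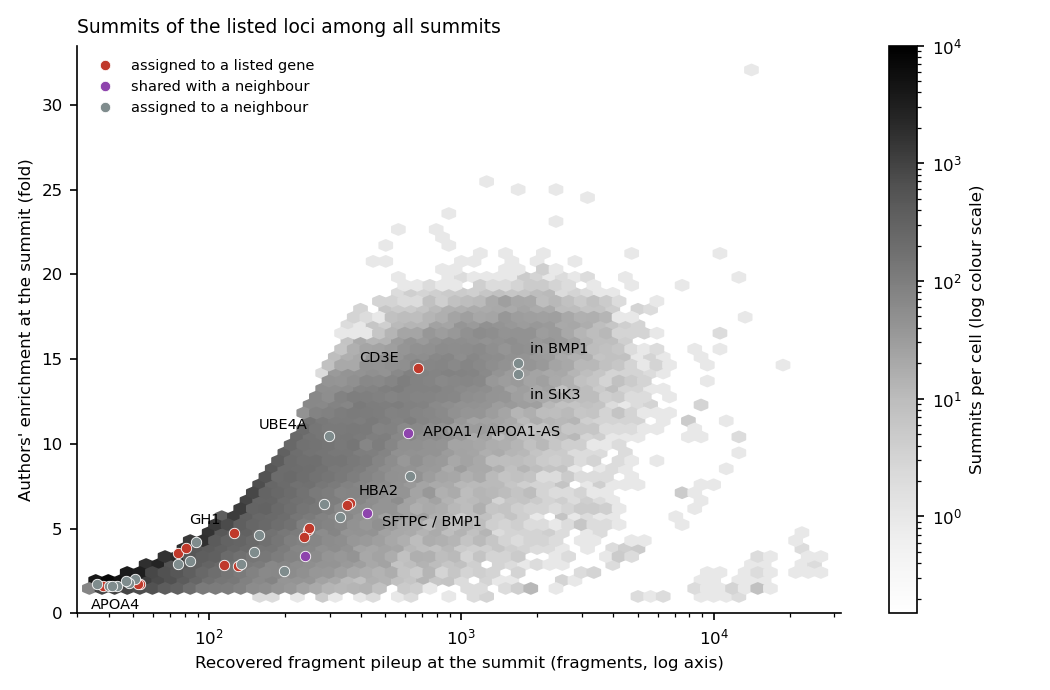
Enrichment at the summit (fold) against recovered pileup (fragments, log axis). Coloured points are the 37 summits of the listed loci by assignment, and grey cells count all summits in intervals of at most 10 kb. The summit beside CD3E, at 14.5 fold and 671 fragments, stands among the stronger sites of the list, and that nearest APOA4, at 1.62 fold and 38 fragments, at its lower edge.

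A summit lay inside 3 of the 10 genes, APOA1, SFTPC and HBA2, where 66.1% of all protein-coding genes had one. The listed genes are short, with a median of 2886 bp against 24115 bp over protein-coding genes, so they offer less sequence to hold one. At a distance of at most 1000 bp from an end, a summit was found for 7 of the 10, against 65.7% of protein-coding genes, a share near that background. At 500 bp the count fell to 3, without CD3E, APOA4, HBA1 and GH1, where 58.5% of protein-coding genes had one. Inside or within 20 kb, all 10 had a summit, as did 92.7% of protein-coding genes. CD3D, CD3G and APOC3 had none inside or within 1000 bp, where 82.5% of protein-coding genes had at least 1.

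For the 7 genes with a summit in the gene or within 1000 bp, the highest enrichment was 14.5 at CD3E, 10.6 at APOA1, 6.49 at HBA2, 5.89 at SFTPC, 5.03 at HBA1, 4.75 at GH1 and 1.62 at APOA4. Those of APOA1 and SFTPC were at summits closer to an end of another gene, APOA1-AS and BMP1. Over the 16538 protein-coding genes with such a summit the median was 11.8, with quartiles of 7.40 and 14.7. The value is the highest over the gene and 1000 bp on either side. Longer genes thus offer more sequence for a high one, and the listed genes are short, so the comparison is not like for like. CD3E stood above that median, since 27.3% of those genes had a value at least as high. APOA1 lay just below it, with 58.1% at least as high. The other 5 were all below the lower quartile, and APOA4 was exceeded or equalled by 99.6% of genes. With a single pooled value per site, no spread is at hand to say which neighbours in this order differ.

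**Figure D2:**
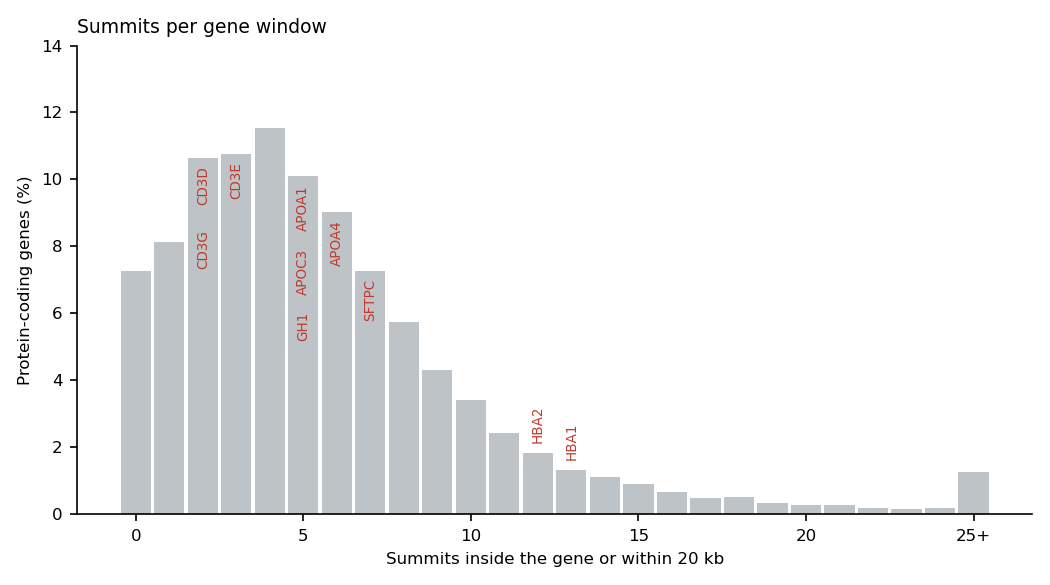
Share of protein-coding genes (%) by the number of summits inside the gene or within 20 kb, with the 10 listed genes written at their own number. CD3D and CD3G had 2 summits and CD3E 3, below the median of 5, and HBA2 and HBA1 had 12 and 13. Windows of neighbouring genes overlap, so their counts are not separate: the 2 summits of CD3D and CD3G are the same, and HBA2 and HBA1 share most of theirs.

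The T cell genes come first. CD3E encodes CD3 epsilon, an obligate subunit of the receptor complex, and spans 118304730 to 118316173 on chromosome 11. It held no summit in its 11444 bp. The summit nearest to it lay at 118316815, 642 bp above its higher-coordinate end, in an interval of 695 bp from 118316547 to 118317241. CD3E is transcribed toward higher coordinates, so this end is its 3′ end and not its promoter. The enrichment there was 14.5, the −log10 q 513 and the pileup 671 fragments over a local background of 45.4. Among summits in intervals of at most 10 kb, 4.88% were at least as enriched and 10.6% had as high a pileup. No other gene of the table had an end within 1000 bp of it. As background, a T cell enhancer in a CpG island on the 3′ side of CD3E has been described; the table used here marks neither enhancers nor CpG islands, so the positions were not compared.

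CD3D and CD3G encode CD3 delta and CD3 gamma, which pair with epsilon, and lie side by side at 118338954 to 118342705 and 118344344 to 118355161. No interval overlapped either gene. The nearest summit to CD3D was 7682 bp below it, at 118331272, with 3.85-fold enrichment and 81 fragments over the genome-wide background of 20.3 fragments. A similar summit lay 8756 bp below CD3E, with 3.56-fold enrichment and 75 fragments. Both lie between genes. For summits in intervals of at most 10 kb the median enrichment was 3.93 and the median pileup 107. The 2 sites were thus of ordinary enrichment, with pileups below the median. CD3G had its nearest summit 4390 bp above it, at 118359551, but that summit was 49 bp from the end of UBE4A, a ubiquitin ligase gene, and was assigned to it. Its enrichment was 10.5 with a pileup of 299.

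**Figure D3:**
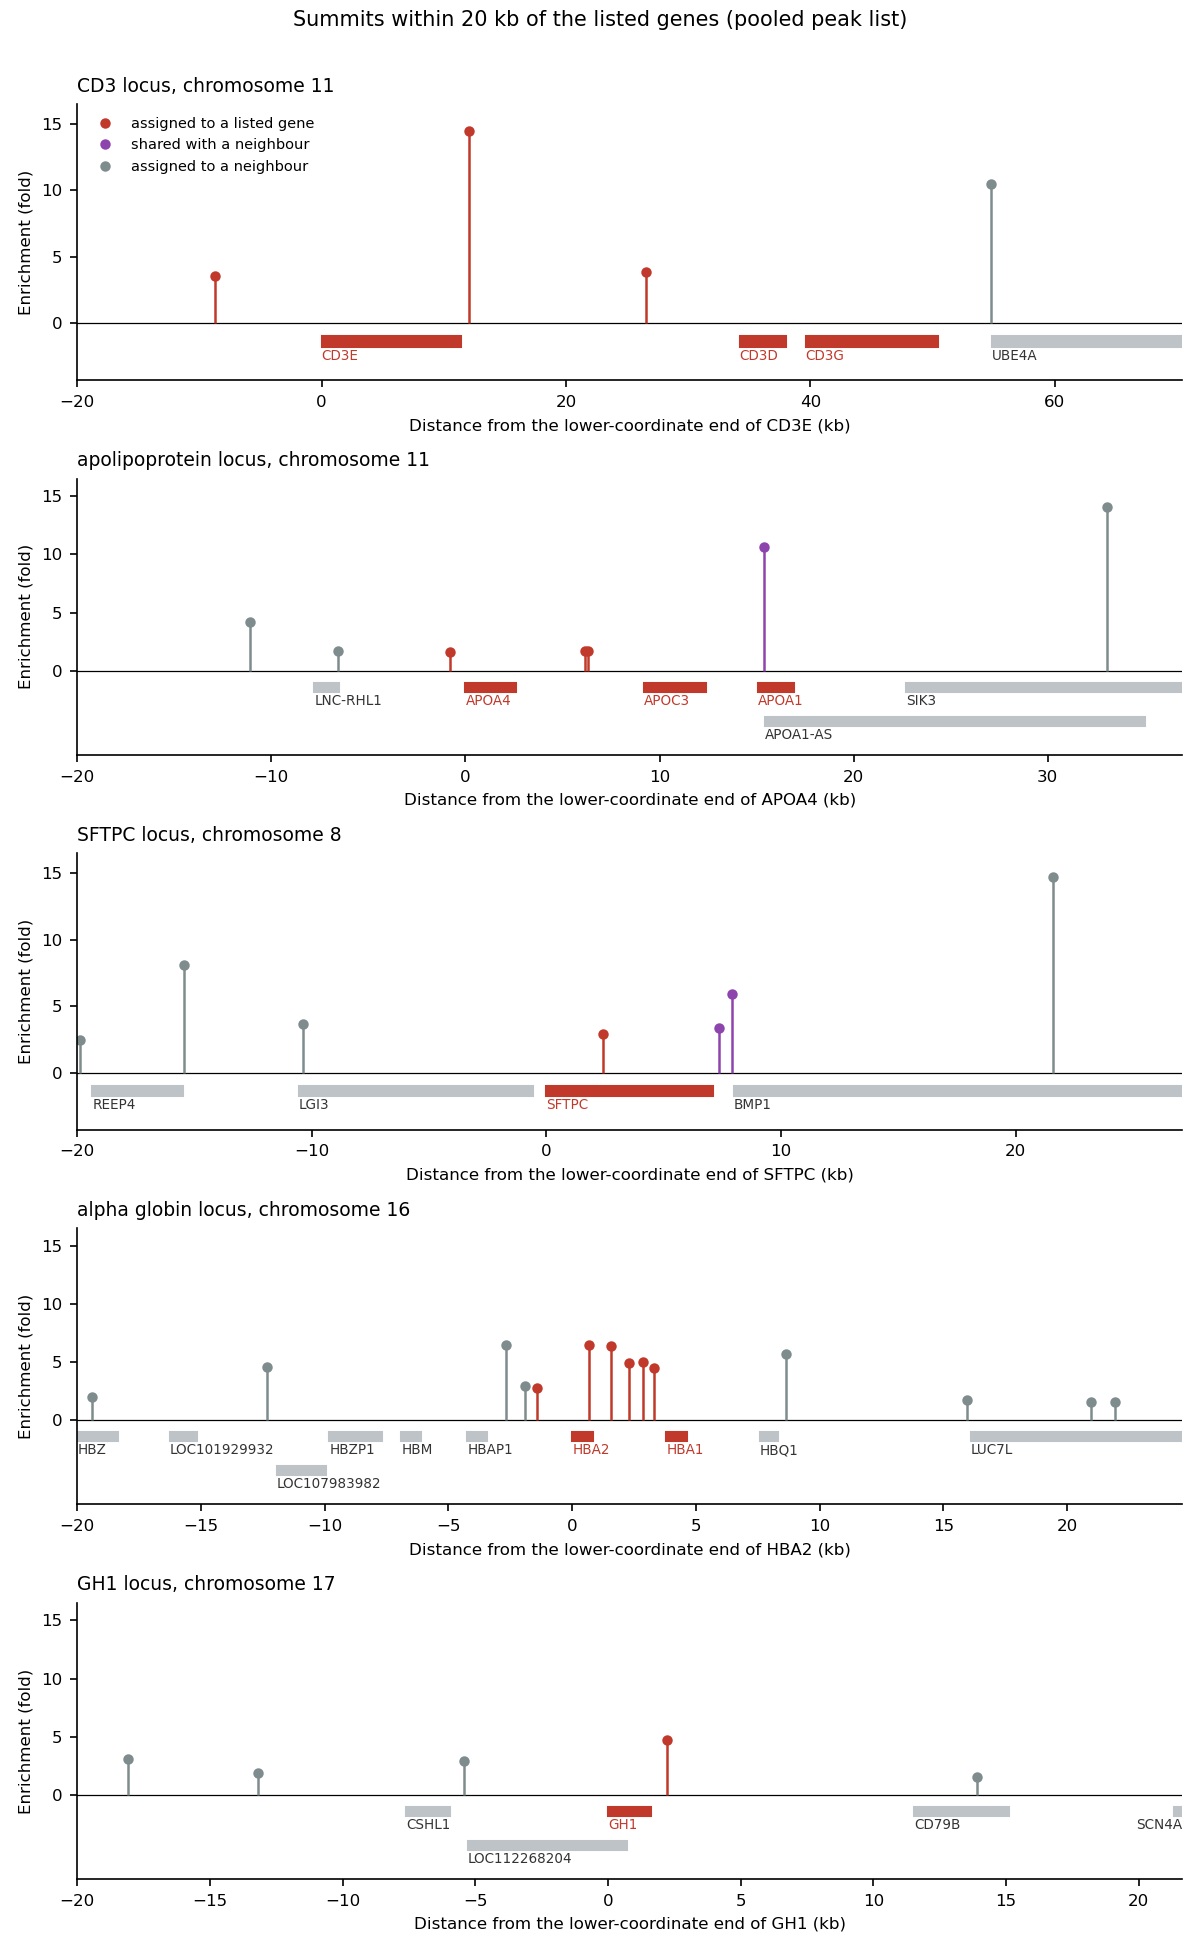
Enrichment (fold) of each summit by distance in kb along the 5 loci, coloured by assignment, with gene bodies below (red for listed genes, grey for others). The tallest summits, at 14.5, 14.1 and 14.8 fold, lie beside CD3E, within SIK3 and within BMP1, whereas the alpha globin summits sit between 1.61 and 6.49.

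RefSeq promoter windows, running from 250 bases before to 50 bases after a gene's start, were given for 2 of the listed genes, CD3D and APOA4, both on the minus strand, and for some neighbours. The promoter windows of UBE4A and CD3D are shown because one has a summit and the other has none, though they lie in the same locus. Both are GRCh38.p14 and are read 5′ to 3′ along the gene, with base 251 at the start of transcription. UBE4A is at chr11:118359350-118359649 on the plus strand and CD3D at chr11:118342656-118342955 on the minus strand. Capitals mark matches on either strand to any of 7 searched motifs. These were the GC box with the letters GGGCGG, the AP-1 motif with TGANTCA, the ETS motif with CCGGAAG, the E-box with CACGTG, the motif of the GATA factors with AGATAA, the TATA box with the letters TATAAA, and finally the motif CCAAT.
UBE4A: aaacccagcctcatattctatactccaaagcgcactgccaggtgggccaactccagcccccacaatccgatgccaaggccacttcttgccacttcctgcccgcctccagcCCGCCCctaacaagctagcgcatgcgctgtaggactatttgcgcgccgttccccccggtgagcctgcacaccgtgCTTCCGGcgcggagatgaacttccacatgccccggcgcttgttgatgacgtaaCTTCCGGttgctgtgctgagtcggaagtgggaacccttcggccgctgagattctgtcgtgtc
CD3D: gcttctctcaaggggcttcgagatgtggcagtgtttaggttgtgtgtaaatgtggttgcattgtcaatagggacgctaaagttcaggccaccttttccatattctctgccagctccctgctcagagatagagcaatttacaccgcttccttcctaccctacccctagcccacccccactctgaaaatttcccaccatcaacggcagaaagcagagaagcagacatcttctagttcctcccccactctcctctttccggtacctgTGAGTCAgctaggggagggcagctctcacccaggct

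The UBE4A summit fell on base 202 of its window. The window held a GC box match at bases 111 to 116 and ETS matches at bases 186 to 192 and 239 to 245. Its CpG content, observed over expected from base composition, was 0.826 and its GC content 60.7%. CD3D had a CpG ratio of 0.252, a GC content of 52.3% and an AP-1 match at bases 265 to 271, and the summit nearest its start was 11433 bp away. Over all 27305 promoter windows, 44.6% held a GC box match, 10.7% an ETS match and 7.76% an AP-1 match, and the median CpG ratio was 0.580. Of the 15843 protein-coding promoter windows, 46.8% held a summit. The share was 64.6% for windows with a CpG ratio of at least 0.6 and 12.5% for those below it, the class to which CD3D and APOA4 belong. A match is a description of letters and not of a bound factor.

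In the apolipoprotein cluster, APOA1 encodes the main protein of high-density lipoprotein and spans 116835751 to 116837622 on chromosome 11. It held 1 summit, at 116836090, 339 bp inside its lower-coordinate end, in an interval of 759 bp from 116835701 to 116836459. The enrichment was 10.6, the −log10 q 393 and the pileup 615 over a local background of 57.0. The interval covered 37.9% of the gene. APOA1 is transcribed toward lower coordinates, so the summit lay toward its 3′ end. It was also 27 bp from an end of APOA1-AS, an antisense RNA that spans 116836117 to 116855729, and it was therefore counted as shared. ATAC-seq carries no strand, so the list cannot say to which of the overlapping genes the site belongs.

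APOA4 and APOC3 encode apolipoproteins of triglyceride-rich particles and chylomicrons. Neither was overlapped by any interval. APOA4, at 116820700 to 116823304, had a summit 796 bp below it, at its 3′ side, with 1.62-fold enrichment, a −log10 q of 1.38 and 38 fragments over a background of 23.0. This is one of the weakest sites in the list, as 97.0% of summits in intervals of at most 10 kb were at least as enriched. APOC3, at 116829907 to 116833072, had a pair of summits in 1 interval, 3024 and 2872 bp below it, with enrichments of 1.75 and 1.71 and pileups of 53 and 52. Their backgrounds were 29.8 and 30.1 fragments. The liver enhancer shared by this cluster is known to lie upstream of APOC3; its position was not examined here.

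The strongest summit of the cluster was not near a listed gene. It lay at 116853763, 16141 bp above APOA1, where 1676 fragments gave 14.1-fold enrichment and a −log10 q of 1255. Only 2.81% of summits in intervals of at most 10 kb had as high a pileup. The summit was inside SIK3, a widely expressed kinase gene, and inside APOA1-AS, whose end at 1966 bp was the nearest of any gene. Inside SIK3 or within 1000 bp of it there were 14 summits, with the highest enrichment, 17.4, at 117 bp from an end. On the other side of the cluster, a summit 11079 bp below APOA4 had an enrichment of 4.22 and one 26 bp from an end of the noncoding gene LNC-RHL1 had 1.74.

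The promoter window of APOA4, at chr11:116823255-116823554 on the minus strand, is shown because it is the only other listed promoter in the RefSeq table. It had no summit and no match to the 7 motifs.
APOA4: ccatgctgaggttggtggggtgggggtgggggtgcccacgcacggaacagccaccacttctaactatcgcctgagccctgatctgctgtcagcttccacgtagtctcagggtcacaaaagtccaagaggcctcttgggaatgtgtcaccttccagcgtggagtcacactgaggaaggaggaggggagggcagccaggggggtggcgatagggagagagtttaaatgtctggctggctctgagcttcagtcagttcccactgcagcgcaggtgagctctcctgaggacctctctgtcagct

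The CpG ratio of the APOA4 window was 0.271 and its GC content 59.3%. The summit nearest its start was 3400 bp away. Like CD3D, the gene had a CpG-poor promoter without a called site.

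SFTPC encodes surfactant protein C, made by alveolar type II cells, and spans 22157383 to 22164479 on chromosome 8. A summit inside it, at 22159812, had 2.88-fold enrichment (−log10 q 20.5), from 114 fragments over a background of 38.9. It lay 2429 bp from the nearest end of the gene, and the interval, of 343 bp, covered 4.83% of SFTPC. A second interval, of 1116 bp from 22164559 to 22165674, lay between SFTPC and BMP1, the gene of a procollagen-processing protease. Its summits were at 22164755 and 22165286, with enrichments of 3.36 and 5.89 and pileups of 240 and 424. The weaker lay 276 bp above the end of SFTPC. The stronger lay 807 bp above SFTPC but 86 bp from BMP1. Both genes are transcribed toward higher coordinates, so the stronger summit lay beside the start of BMP1 and beyond the 3′ end of SFTPC.

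The highest enrichment in the SFTPC window was 14.8, at 22178987, with a pileup of 1670. This summit was 14508 bp above SFTPC and inside BMP1, although the gene end nearest to it, at 8789 bp, was that of the noncoding LOC124901904 within BMP1. Below SFTPC, a summit 4 bp from an end of REEP4, a gene of endoplasmic reticulum shaping, had 8.09-fold enrichment and 626 fragments. A second one at 508 bp from REEP4 had 2.48, and a summit inside LGI3, 170 bp from its end, had 3.64. All 7 summits of the window were over a raised local background, from 38.9 to 112.2 fragments.

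HBA2 and HBA1 encode the same alpha chain of haemoglobin and are near-identical copies, at 172876 to 173710 and 176680 to 177522 on chromosome 16. A single interval of 7673 bp, from 169608 to 177280, ran across both. It covered all 835 bp of HBA2 and 601 of the 843 bp of HBA1 and held 8 summits. Only 1.05% of intervals were as long, against a median of 520 bp for intervals of at most 10 kb, of which 0.410% held as many summits. From low to high coordinates the enrichments were 6.44, 2.94, 2.80, 6.49, 6.40, 4.90, 5.03 and 4.49. The pileups in the same order were 284, 134, 130, 362, 352, 247, 249 and 237, over backgrounds of 43.3 to 54.9 fragments. The signal was thus broad, with no summit standing alone as at CD3E.

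HBA2 held 1 summit, 137 bp from its higher-coordinate end, which is the 3′ end since both genes are transcribed toward higher coordinates. It had the highest enrichment of the interval, 6.49. HBA1 held none. Between the genes, over a gap of 2969 bp, there were 4 summits, of which 3 lay within 1000 bp of a gene: 754 bp above HBA2, and 941 and 511 bp below HBA1. The other 3 summits were below HBA2, and the lowest, with 6.44, was 741 bp from the pseudogene HBAP1. Reads from the near-identical copies can be split between them or placed at either, and the list carries no mapping quality, so the values of HBA2 and HBA1 are uncertain and a difference between them is not stated.

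The other summits of the alpha globin window were weaker or belonged to neighbours. HBQ1, the theta globin gene, had one 344 bp from its end with 5.67-fold enrichment and 329 fragments. LOC107983982, a noncoding gene, had one at 417 bp with 4.62 and 157. HBZ, the embryonic zeta globin gene, held a weak one with 2.01 and 51, and HBM, the mu globin gene, had none within 1000 bp. LUC7L, a splicing factor gene, had 3 in the window with 1.77, 1.62 and 1.61, all with a −log10 q under 3. Its own strong summits lay beyond the window, with 15.3 at 151 bp from its other end. In NPRL3, the neighbouring gene whose introns are known to hold the remote enhancers of alpha globin, 3 internal summits had enrichments of 8.80, 4.47 and 9.38; NPRL3 was named after its values were seen, and whether these are the enhancers was not examined.

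**Figure D4:**
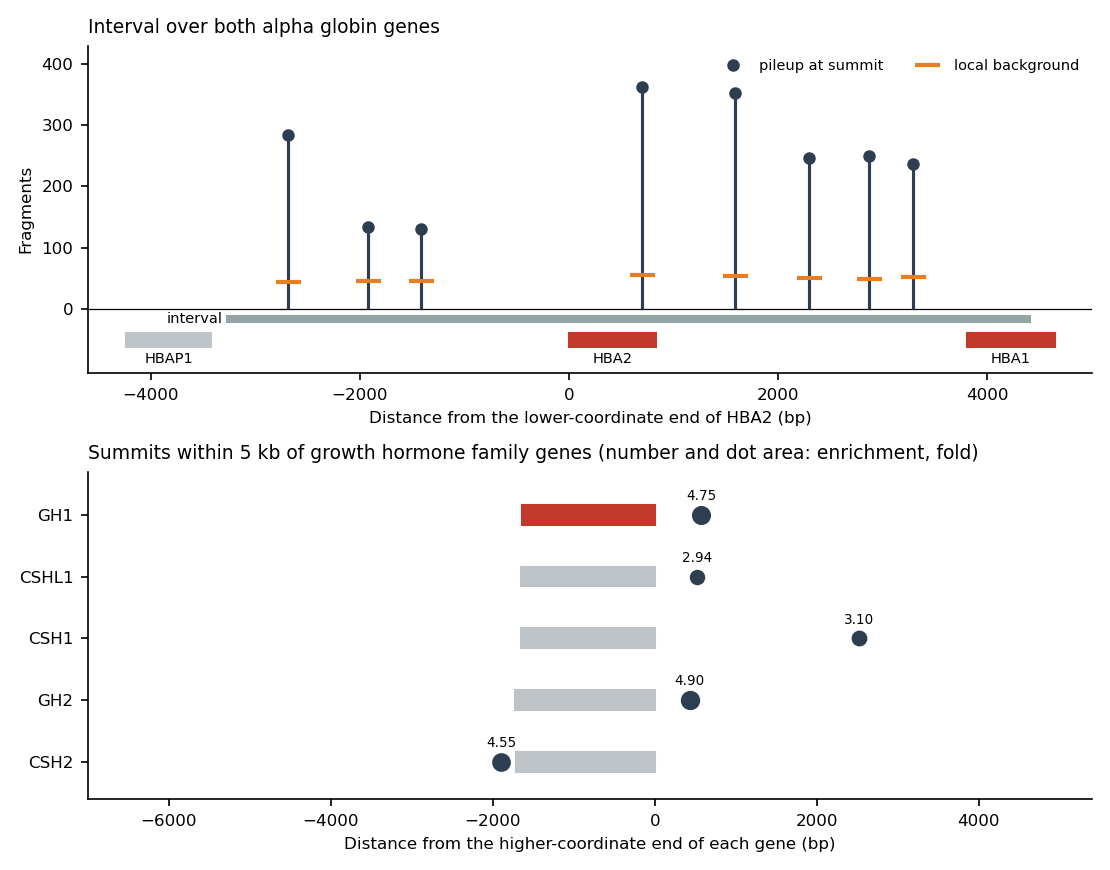
Top, recovered pileup and local background (fragments) at the 8 summits of the alpha globin interval by distance in bp from HBA2, with the interval and genes below. Bottom, summits within 5 kb of the 5 growth hormone family genes, aligned at their higher-coordinate ends, with enrichments from 2.94 to 4.90 fold: GH1, CSHL1 and GH2 each have one just above that end.

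GH1 encodes pituitary growth hormone and spans 63917203 to 63918839 on chromosome 17, in a cluster with its placental relatives CSHL1, CSH1, GH2 and CSH2. It held no summit. One lay at 63919412, 573 bp above its higher-coordinate end, in an interval of 391 bp from 63919277 to 63919667. Its enrichment was 4.75, its −log10 q 43.4 and its pileup 126 over 25.7 fragments. GH1 is transcribed toward lower coordinates, so this site was upstream of its start. By called position, HBA1 was the only other one of the 7 genes with a summit within 1000 bp upstream. At the other 5 the nearby summits lay inside the gene or past its 3′ end. HBA2 is among these 5, but reads of the near-identical HBA1 and HBA2 can be placed at either copy. The positions therefore do not show that HBA1 differs from HBA2. Of the summits in intervals of at most 10 kb, 42.5% were at least as enriched as the GH1 site, so that site is of ordinary strength.

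A similar offset was seen at GH2 and CSHL1 of the cluster, but not at CSH1 or CSH2. GH2, the placental growth hormone gene, had a summit 433 bp above its higher-coordinate end, with 4.90-fold enrichment and 131 fragments. CSHL1, a placental lactogen-like gene, had one at 524 bp, with 2.94 and 75. CSH1 had none within 1000 bp, and the nearest was 2523 bp above it with 3.10. CSH2 had one on its other side, 182 bp below its lower-coordinate end, with 4.55 and 125. These genes are close copies of each other, so reads may be shared among them and the sites at GH1, CSHL1 and GH2 are not independent of each other. GH2 and CSH2 lie outside the GH1 window and come from the marker list of the pituitary, and CSH2 was named after its value was seen.

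The CSHL1 summit was also 138 bp from the start of LOC112268204, a noncoding gene whose body reaches into GH1. Its RefSeq promoter window, at chr17:63911670-63911969 on the plus strand, is shown because the summit falls in it, on base 113. The window held AP-1 matches at bases 64 to 70 and 111 to 117, the latter spanning the summit, along with a CCAAT match at bases 38 to 42 and overlapping GC box matches at bases 193 to 198 and 198 to 203.
LOC112268204: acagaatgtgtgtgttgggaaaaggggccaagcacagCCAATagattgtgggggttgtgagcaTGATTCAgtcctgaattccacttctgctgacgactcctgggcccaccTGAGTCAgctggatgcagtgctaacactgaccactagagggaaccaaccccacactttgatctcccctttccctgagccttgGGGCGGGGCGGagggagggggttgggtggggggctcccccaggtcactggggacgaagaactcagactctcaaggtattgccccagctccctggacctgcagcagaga

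A CCAAT match occurred in 35.7% of all promoter windows, and the shares with an AP-1 or a GC box match were given with UBE4A. The CpG ratio of this window was 0.158, lower than that of CD3D or APOA4, yet it held a summit. So did the window of LNC-RHL1, whose ratio was lower still, at 0.0426. That window had a GATA match but no AP-1 match, and its summit had only 1.74-fold enrichment. AP-1 factors bind TGANTCA and are used in many mesenchymal cells; a match at the summit does not show that one was bound. Upstream of GH1, the pituitary control region is known to lie toward CD79B and SCN4A. Apart from the site 573 bp above GH1, the only summit on that side within 20 kb lay 12267 bp above GH1, inside the B cell gene CD79B. It was at the limit of the list, with 1.60-fold enrichment and a −log10 q of 1.38.

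The local background was above the genome-wide value at 33 of the 37 summits, or 89.2%, compared with 65.0% of summits in intervals of at most 10 kb. All 14 alpha globin, 7 SFTPC and 5 GH1 summits were over a raised background. The 4 at the genome-wide value were the distal sites below CD3E and CD3D and both sites nearest LNC-RHL1. A raised background lowers the enrichment that a given pileup yields, so both quantities rank the sites differently: the stronger summit between SFTPC and BMP1 was exceeded or equalled in enrichment by 34.4% of summits and in pileup by 16.6%.

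The outermost summits inside the limit of 20 kb were those at 19871 bp below SFTPC and 19422 bp below HBA2, with enrichments of 2.48 and 2.01. Just outside it, the nearest summits were 23084 bp above HBA1 with 9.04, 23525 bp below HBA2 with 1.94, 23529 bp above SFTPC with 2.31 and 24127 bp above APOA1 with 12.8. All of these were nearest to, or inside, other genes: LUC7L, HBZ, LOC124901904 and SIK3. Beyond the CD3 genes the next summit on the higher side was 46342 bp from CD3G, 103 bp from ATP5MG.

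Marker lists of each lineage gave the context. Of 12 mesenchymal genes, 11 had a summit at most 1000 bp from an end (91.7%, with 65.7% of all protein-coding genes), led by FN1 with an enrichment of 15.1, TIMP1 with 13.2 and COL6A2 with 10.3. THY1 had none near an end. The summits of FN1, COL6A1, SPARC and S100A4 also lay within 1000 bp of the end of a further gene. Inside the gene, a summit was found for 11 of 12 mesenchymal genes, but also for 9 of 10 alveolar and 10 of 15 T cell genes, against 66.1% of protein-coding genes. The liver list had 7 of 15, the erythroid list 2 of 15 and the pituitary list 1 of 14. Gene lengths were not matched, so these counts and the overall share are not like for like. HBA2 and HBQ1 of the erythroid list span 835 and 721 bp, and CSH1 of the pituitary list 1657 bp. The median over protein-coding genes was 24115 bp. Within 1000 bp of an end, 7 of 15 T cell genes had a summit, led by CD3E, LAT with 10.1 and CD8A with 8.33. The LAT summit also lay within 1000 bp of SPNS1. Of the liver genes, 4 of 15 had one near an end, led by APOA1, APOA5 with 6.40 and APOB with 2.53. ALB, the albumin gene, and FGA, a fibrinogen gene, had no summit even within 20 kb.

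Among alveolar type II genes, 6 of 10 had a summit near an end, led by ABCA3 with 16.8, SFTPC with 5.89 and NAPSA with 4.97. The ABCA3 summit was shared with the pseudogene ABCA17P and that of SFTPC with BMP1. The summit nearest the end of SFTPC itself had 3.36, below that of NAPSA. NKX2-1, the transcription factor of this lineage, had none near an end and 1 inside. Of the erythroid genes, 5 of 15 had one near an end, led by HBA2, HBQ1 and HBA1. All erythroid genes with a summit near an end, other than ALAS2, were genes of the alpha globin cluster, and the ALAS2 summit was shared with APEX2. HBB, HBD, HBG1 and HBG2, the beta-type globins of the other cluster, had none within 20 kb. HBE1, the embryonic gene of that cluster, had 2 within 20 kb but none inside it or near an end. GATA1 and KLF1 had none near an end. Of the pituitary genes, 6 of 14 had a summit near an end, led by POMC with 4.94, GH2 and GH1. PRL, TSHB and CGA had none within 20 kb.

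**Figure D5:**
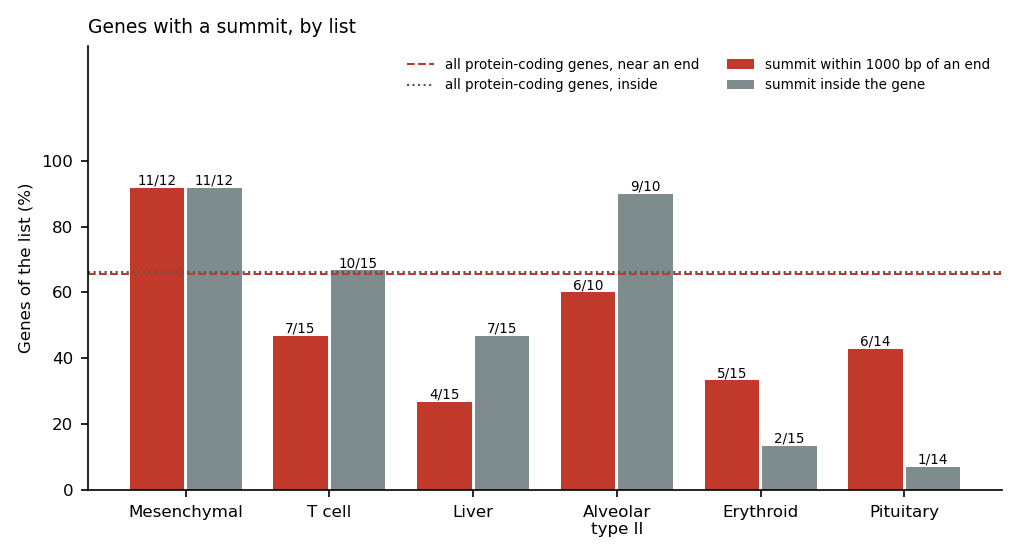
Share of genes (%) in 6 marker lists with a summit within 1000 bp of an end (red) or inside the gene (grey), with counts above the bars and the shares over all protein-coding genes as lines. The mesenchymal list stood at 11 of 12 for both, the alveolar list at 6 of 10 near an end and 9 of 10 inside, and the liver list had 4 of 15 near an end. Gene lengths were not matched between the lists.

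Medians of the highest enrichment near an end were 9.96 in the mesenchymal list, 6.33 in the T cell list, 5.03 in the erythroid list, 4.65 in the pituitary list, 4.47 in the liver list and 4.45 in the alveolar list. All were below 11.8, the median over protein-coding genes with a summit inside or within 1000 bp. That measure is wider, as it also takes in the gene body, and no overall value for ends alone is given. Within the lists of other lineages, CD3E, APOA1, LAT and ABCA3 were the genes above 10, and at the last 3 an end of another gene lay within 1000 bp of the same summit. CD3E was the exception, with a strong site and no other gene end near it. The lists include the listed genes themselves and were drawn up with earlier results known, so their counts give no independent support.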

How the data were processed

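ATAC-seq was described for 12 libraries of HT1080 cells in 3 collagen concentrations, grouped by title. Per the submitters' processing notes, the tools were fastp 0.20.0, Bowtie2 2.4.3, SAMtools, deepTools 3.5.0 and MACS2 2.2.7.1 and the build hg38; settings, pooling and any control are not given in the sources used here. The deposited list gave, per summit, a score, an enrichment (ratio), and p and q on the −log10 scale, all from the authors. Since no column named a library, the planned comparison of concentrations was not run.

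Pileup and background were recovered by taking the authors' deposited enrichment ratio as (pileup + 1)/(background + 1) and the deposited p-value as the Poisson probability of more fragments than the pileup. A whole pileup, within 0.05, came out for 99.96% of summits, and the recovery was tested on simulated data. Each summit went to the gene whose end was nearest; it was shared where a listed gene and another had an end within 1000 bp. Python 3.11.15, pandas 2.3.3 and scipy 1.17.1 were used. Promoter sequences are from RefSeq (GRCh38.p14). Transcription directions of genes without a promoter entry are general knowledge. The genes and marker lists were chosen with earlier results of these data known. Named were all 10 genes, every gene given a summit, and the 3 most enriched of each marker list; others were named after their values were seen. Exon and intron boundaries were not used here. Alternatives were a −log10 q of at least 10, other windows and distances, 1 summit per interval and other rules of assignment.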

Additional observations from a re-analysis of the deposited data

How the results depend on the processing

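Of 25 alternative counts, 17 stayed within 1.5 times of the reported one and 8 did not. Some of the 17 say little. Keeping only intervals of at most 10 kb could not change any count, since no interval in the windows was longer than 7673 bp. A distance of 2500 bp could only keep or raise the count near an end. The members with a summit inside the gene stayed at 3 or 4 of 10 throughout. Those with a summit within 1000 bp of an end fell from 7 to 3 at a distance of 500 bp, where CD3E, APOA4, HBA1 and GH1 were lost. With only the transcription start counted, 0 of the 2 genes with a known strand had one. A −log10 q of at least 10 lost APOA4, and the strongest summit of each interval lost HBA1. The 37 summits in the windows became 19 with 5 kb, 23 with 10 kb and 66 with 50 kb, since a wider window takes in more sequence. The 14 summits assigned to a listed gene became 8 with the strongest summit of each interval or with each interval counted once by any overlap, because the 6 such summits of the alpha globin interval and the 2 of the APOC3 interval then count once each. They also became 8 when only summits inside or within 1000 bp of a listed gene counted, a rule added once the values were known. With only protein-coding genes competing they were 19, and with gene bodies first 16. At all 7 genes with a value, the summit of highest pileup was also that of highest enrichment. A −log10 q of at least 10 can only drop a summit, so it says nothing about the size of the enrichments; APOA4 had none left.

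No paired analysis was possible because the pooled list carries no values per library. Leaving out single libraries and assignment by the nearest transcription start were not run, the latter because 8 of the 10 genes had no strand in the tables used. Sites with a pileup under 35 fragments were not detectable at this depth.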
